A study of Mus musculus with 6 samples.

Results

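The 10 cytokine genes Ifng, Il2, Il3, Il4, Il5, Il13, Il17a, Il21, Il22 and Lta, which encode secreted products of activated T cells, were followed in RNA-seq of CD8T cells cocultured with macrophages. They were chosen by gene name from the 54532 genes of the count table, and all 10 were found. CD8T cells of mouse spleen had been stimulated with beads carrying anti-CD3/CD28 and then kept for 24 hr with peritoneal macrophages, which had been primed for 12 hr with IFN-γ at 10 ng/mL. In the control group (3 samples) the macrophages had not received DB2313. In the DB2313 group (3 samples) they had received DB2313, which inhibits the myeloid transcription factor Spi1, at 14 nM according to the methods. All 6 samples share the bead activation and the IFN-γ given to the macrophages. Whether the macrophages of either group received anything else, such as a vehicle, is not given in the sources used here. GEO's labels name the samples primary T cells and call the cocultured cells DC cells, whereas the paper calls them macrophages. Strain, age and sex are not given in the sources used here. The sources also do not say whether the 3 samples of a group came from separate cultures, so that p-values measure only the spread between these samples, which may be technical.

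Cytokine genes are kept nearly silent in resting T cells and are switched on within hours of T cell receptor and CD28 signalling, through calcium-driven NFAT together with AP-1 and NF-κB. Which of them a T cell transcribes depends on its lineage. Tbx21 and Eomes favour Ifng, and Gata3 favours Il4, Il5 and Il13. CD8T cells are known mainly for Ifng, with Il2 and Lta in the early response, whereas Il4, Il5, Il13, Il17a, Il21 and Il22 are better known from helper CD4 T cells and innate lymphocytes.

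Because the members share NFAT as a regulator, their promoters were searched for the NFAT core GGAAA on both strands, from 250 bases before to 50 bases after the RefSeq start of each gene. All 10 genes had a RefSeq promoter of GRCm38.p6, and Il4 had a pair of them, so that 11 promoters were searched. The letters were found in 10 of the 11 promoters, against 61.3% of the 32851 promoters of the same length. The promoter of Il17a was the one without a match. The TATA letters TATAAA were found in 6 of the 11, against 13.6% of all promoters, the AP-1 letters TGANTCA in 1, against 7.81%, the T-box letters AGGTGT in 3, against 13.7%, and the GATA letters AGATAA in 3, against 11.2%. Matches of each motif were counted separately, so that matches of different motifs may overlap. Printed here are the promoters of Lta, which held most of the counts, and of Il2 and Il13, whose groups did not overlap in CPM. They run 5′ to 3′ on the strand of the gene, with each GGAAA or its reverse complement TTTCC in capitals. Their places are chr3:37125905-37126204 (minus strand) for Il2, chr17:35205302-35205601 (minus strand) for Lta and chr11:53634653-53634952 (minus strand) for Il13.
Il2 promoter: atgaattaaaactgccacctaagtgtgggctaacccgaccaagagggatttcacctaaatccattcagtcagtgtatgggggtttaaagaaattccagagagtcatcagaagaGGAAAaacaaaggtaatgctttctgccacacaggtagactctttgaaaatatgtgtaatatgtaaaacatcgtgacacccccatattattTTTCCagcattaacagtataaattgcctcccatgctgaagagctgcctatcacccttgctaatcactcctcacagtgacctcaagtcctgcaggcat
Lta promoter: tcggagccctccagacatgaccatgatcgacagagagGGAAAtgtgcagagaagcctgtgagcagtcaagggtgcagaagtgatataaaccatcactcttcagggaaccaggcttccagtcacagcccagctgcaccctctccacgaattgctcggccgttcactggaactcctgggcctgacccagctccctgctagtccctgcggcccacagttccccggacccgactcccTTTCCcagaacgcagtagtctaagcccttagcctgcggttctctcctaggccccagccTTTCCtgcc
Il13 promoter: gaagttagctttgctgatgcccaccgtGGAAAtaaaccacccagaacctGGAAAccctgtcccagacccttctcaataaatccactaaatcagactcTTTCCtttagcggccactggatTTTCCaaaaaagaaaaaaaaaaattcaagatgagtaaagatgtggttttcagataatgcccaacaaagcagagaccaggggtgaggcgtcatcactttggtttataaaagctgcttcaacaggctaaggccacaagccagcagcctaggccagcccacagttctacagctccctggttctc
The capitals number 2 in Il2, 3 in Lta and 4 in Il13. A match describes these letters and does not show that a factor was bound.

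Between 16611975 and 18596217 reads were counted on genes in each library, and where none was counted the true number may be as high as 3 counts, at most 1.81e-05% of a library. Of the 14883 genes that passed the filter on low counts, 20.8% were higher and 24.6% were lower in the DB2313 group at an adjusted p below 0.05 (quasi-likelihood test of edgeR, adjusted by Benjamini-Hochberg over these genes). This split depends on the scaling, with 33.1% higher and 19.2% lower under library size scaling and 29.0% higher and 20.8% lower under upper quartile scaling. Under TMM and with an absolute log2 fold change above 1 as well, 1.37% were higher and 5.3% lower. The RNA held more than T cell transcripts. The summed level of 20 T cell genes was 3345 to 3365 CPM (counts per 1000000 counts of the library, scaled by TMM) in the control group and 5076 to 5121 CPM in the DB2313 group. All 20 were higher in the DB2313 group. The summed level of 20 macrophage genes was 14800 to 15160 and 6124 to 6293 CPM, with 17 of them lower and 3 higher. Cd8a and Cd8b1, which encode CD8, were present at means of 118.5 and 107.4 CPM in the control group, and so was Cd4, a marker of helper T cells, at 213.0 CPM.

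Of the 10 cytokine genes, Il2 and Lta fell in the DB2313 group and none rose, although the call of Lta was lost in 7 of 13 alternatives to the processing. Il2, the growth factor of T cells, was 1.74-fold lower. Lta, which encodes lymphotoxin-α, was the most abundant of the 10 and fell by 0.18 on the log2 scale. Ifng, Il4, Il13 and Il17a passed the filter without passing the test, and Il3, Il5, Il21 and Il22 did not pass the filter on low counts. So 2 of the 6 tested members were lower, beside 24.6% of all tested genes, and none was past the threshold of fold change. The median log2 fold change of the 6 was -0.41, beside 0.019 over all tested genes. Here as in all bulk samples, fewer cells of a type and less RNA per cell cannot be told apart.

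The cytokine genes were scarce transcripts. All 10 together took 946 to 1182 counts per library, of which 81.5% to 87.4% were Lta. Without Lta, 219, 204 and 186 counts were left in the control group and 165, 121 and 142 in the DB2313 group. Of these, Il2 made 108, 108 and 84 in the control group and 78, 49 and 53 in the DB2313 group. These counts are not scaled to library size. The median tested gene had 2457 counts summed over the 6 libraries. Among tested genes, 69.0% had a lower mean CPM than Lta, 25.8% a lower one than Il2, 17.0% than Il4, 9.71% than Ifng, 7.56% than Il13 and 1.38% than Il17a. Ranked per length, as CPM per kilobase of transcript (RPKM, mean ± SD, n = 3), the levels in the control group were 40.0 ± 1.22 for Lta and 5.07 ± 0.523 for Il2. Il4 followed at 1.60 ± 0.162, and Ifng lay at 1.03 ± 0.194. Lta, Il2 and Il4 lay apart from each other and from Ifng in both groups. In the control group, Lta was 38.8 times and Il2 4.91 times the RPKM of Ifng. From Ifng downward the neighbours in this order, Il13 (0.961 ± 0.181), Il3 (0.846 ± 0.519), Il17a (0.479 ± 0.0648), Il22 (0.308 ± 0.333) and Il21 (0.0192 ± 0.0243), each compared with the one before it, did not differ beyond the spread between libraries. In the DB2313 group the first 5 places were held by the same genes in the same order, and Il17a (0.509 ± 0.202 RPKM) stood before Il3 (0.421 ± 0.330 RPKM).

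**Figure D1:**
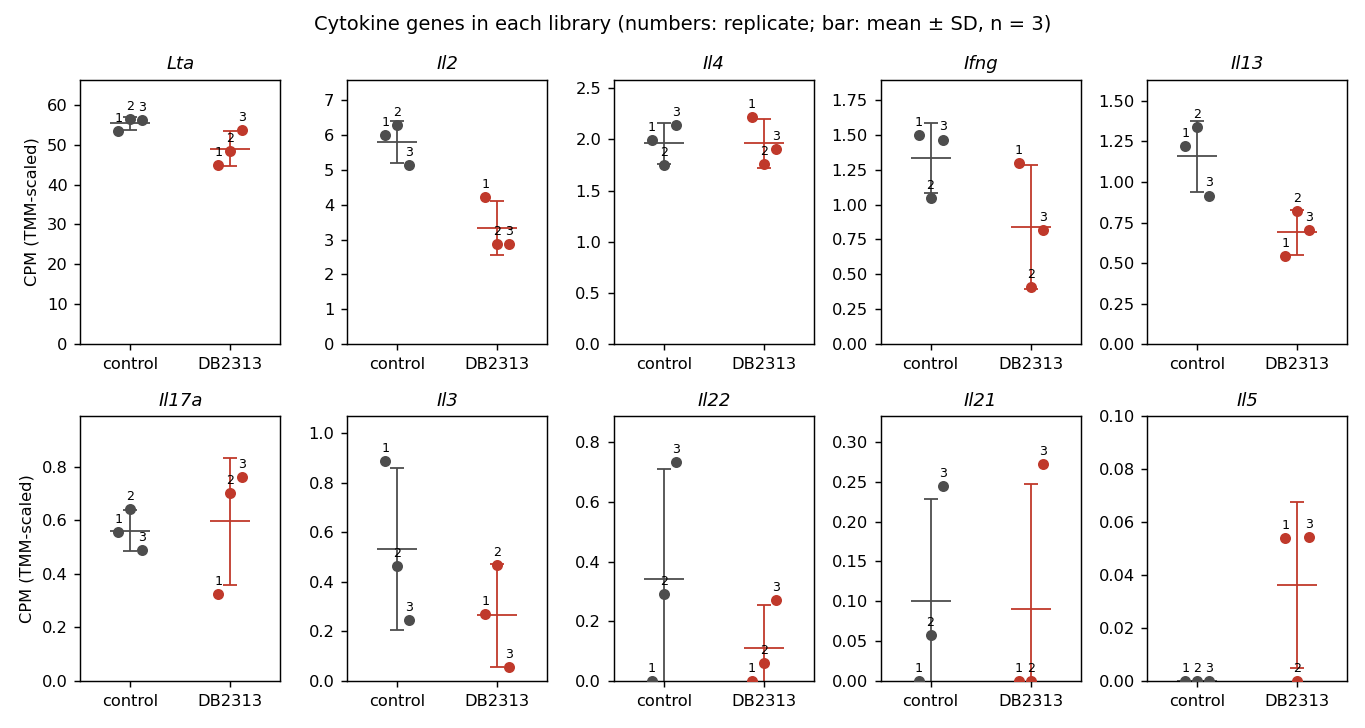
Level of each of the 10 cytokine genes in the 6 libraries, in CPM scaled by TMM, on a linear axis from 0 with its own range for each gene. Points are libraries, numbered by replicate, and bars give the mean ± SD of 3 libraries (cut off at 0). Il2 lies between 5.13 and 6.28 CPM in the control group and between 2.87 and 4.22 CPM in the DB2313 group, while Il4 covers nearly the same range in both groups.

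Il2 (ENSMUSG00000027720, chromosome 3 of GRCm38 from 37120523 to 37125959, minus strand) encodes interleukin-2, which activated T cells release and take up again for their expansion. It had 108, 108 and 84 counts in the control libraries and 78, 49 and 53 in the DB2313 libraries. The lowest control library lay above the highest DB2313 library. In CPM, groups without overlap were found in 53.1% of all tested genes. The level went from 5.80 ± 0.598 to 3.32 ± 0.778 CPM (SD, n = 3 each). The log2 fold change was -0.80 (standard error 0.19, 95% interval -1.20 to -0.40, adjusted p = 0.00140, edgeR). For a single gene, an exact two-sided permutation test of the CPM gave p = 0.1, the smallest value that 3 samples against 3 allow. Il2 kept its direction and its call in all 13 alternatives to the processing. The gene runs over 1408 bases of Adad1 on the opposite strand without sharing exonic bases. Adad1 had 3, 1 and 3 counts in the control group and 0 in each DB2313 library.

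Lta (ENSMUSG00000024402, chromosome 17 from 35203165 to 35205351, minus strand) encodes lymphotoxin-α, which is secreted as a homotrimer that binds the tumour necrosis factor receptors or is held at the cell surface together with lymphotoxin-β. It had 963, 969 and 920 counts in the control libraries and 830, 825 and 986 in the DB2313 libraries. Scaled by TMM these were 53.4, 56.4 and 56.2 CPM against 44.9, 48.3 and 53.6 CPM. The groups overlapped, since the third DB2313 library lay just above the first control library. The mean level was 55.3 ± 1.69 CPM in the control group and 49.0 ± 4.36 CPM in the DB2313 group (SD, n = 3 each). The log2 fold change was -0.18 (standard error 0.065, 95% interval -0.31 to -0.042, adjusted p = 0.0296 from the same edgeR test, exact permutation p = 0.2). This call was lost with DESeq2 (adjusted p = 0.0811), with library size scaling (0.313) and with upper quartile scaling (0.159). It was also lost without the control library 2 (adjusted p = 0.0999) or 3 (0.0870), or the DB2313 library 1 (0.172) or 2 (0.0700), although the sign stayed negative throughout.

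Ifng (ENSMUSG00000055170, chromosome 10 from 118441046 to 118445892, plus strand) encodes interferon-γ, the main macrophage-activating cytokine of CD8T cells. It had 27, 18 and 24 counts in the control libraries and 24, 7 and 15 in the DB2313 libraries. The first DB2313 library lay within the control range and the second was the lowest of the 6. The level was 1.34 ± 0.251 and 0.842 ± 0.445 CPM (SD, n = 3 each), a log2 fold change of -0.65 (standard error 0.39, 95% interval -1.47 to 0.17, adjusted p = 0.190 by edgeR). The interval runs from a fall of more than 1 to a small rise, and no difference was detectable at this depth. Of the 1295 exonic bases of Ifng, 336 (25.9%) are shared with AC153498.1 (ENSMUSG00000111913, named Gm49751 in GENCODE M21), a gene of the same strand with 2, 1 and 0 counts in the control group and 1, 1 and 0 in the DB2313 group. How reads in such shared bases were counted is not given in the sources used here.

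Il4, Il13 and Il5 encode the type 2 cytokines and lie together on chromosome 11, with 12.7 kb between Il4 and Il13 and 86.1 kb between Il13 and Il5. Il13 (ENSMUSG00000020383, chromosome 11 from 53631324 to 53634702, minus strand) encodes a cytokine that acts on epithelium and macrophages. It had 22, 23 and 15 counts in the control libraries and 10, 14 and 13 in the DB2313 libraries. Although the groups did not overlap, the log2 fold change of -0.75 (standard error 0.38, 95% interval -1.54 to 0.044) did not pass the test (adjusted p = 0.117 by edgeR, exact permutation p = 0.1). Such a separation of the groups was found in 53.1% of all tested genes. Il4 (ENSMUSG00000000869, chromosome 11 from 53602982 to 53618669, minus strand) encodes interleukin-4, which drives type 2 differentiation. It had 36, 30 and 35 counts and 41, 30 and 35 counts, with both groups covering nearly the same range. Its mean was 1.96 CPM in each group (SD 0.199 and 0.236, n = 3 each), with a log2 fold change of 0.0031 and a 95% interval from -0.55 to 0.56. Il5 (ENSMUSG00000036117, chromosome 11 from 53720794 to 53725106, plus strand) encodes the growth factor of eosinophils and had 0 counts in the 3 control libraries and 1, 0 and 1 in the DB2313 libraries, which is within what a count of 0 allows, so that no fold is given. Of its exonic bases, 27.1% are shared with an antisense gene, Gm12214, which had 0 counts in every library.

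Il17a and Il22 encode cytokines of the type 3 response, which act on epithelium and stroma. Il17a (ENSMUSG00000025929, chromosome 1 from 20730905 to 20734496, plus strand) had 10, 11 and 8 counts in the control group and 6, 12 and 14 in the DB2313 group. The DB2313 libraries lay on both sides of the control range, and the log2 fold change was 0.080 (standard error 0.47, 95% interval -0.89 to 1.05, adjusted p = 0.906 by edgeR). Il22 (ENSMUSG00000074695, chromosome 10 from 118204942 to 118210047, plus strand) had 0, 5 and 12 counts against 0, 1 and 5, a total of 17 against 6. The ratio of these totals relative to library size was 0.338, with an interval of 0.109 to 0.898 that covers counting error only. The libraries of each group were spread from 0 upward and overlapped, and in a fit without the filter Il22 did not pass the test (log2 fold change -1.54, adjusted p = 0.296 by edgeR). Its near-identical paralog Iltifb had 0 counts in the control libraries and 3, 0 and 1 in the DB2313 libraries, and the division of reads between the pair is uncertain.

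Il3 and Il21 complete the list. Il3 (ENSMUSG00000018914, chromosome 11 from 54265303 to 54267277, minus strand) encodes a growth factor of mast cells, basophils and myeloid progenitors. It had 16, 8 and 4 counts in the control libraries and 5, 8 and 1 in the DB2313 libraries. The groups overlapped, and the control libraries were spread widely. Its totals of 28 and 14 gave a ratio relative to library size of 0.478, with a counting interval of 0.233 to 0.940, and without the filter it did not pass the test (log2 fold change -1.02, adjusted p = 0.339 by edgeR). Il21 (ENSMUSG00000027718, chromosome 3 from 37222759 to 37232636, minus strand) encodes a cytokine that helps B cells and sustains CD8T cells. It had 0, 1 and 4 counts against 0, 0 and 5, a ratio of 0.957 with a counting interval of 0.22 to 4.16. Most of its counts came from the library numbered 3 in each group. Of its 5259 exonic bases, 469 (8.92%) are shared with the antisense gene Gm12534, which had 0 counts in every library.

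Since the T cell genes took a larger share of the DB2313 libraries, the cytokine genes were also expressed per 1000 counts of the 20 T cell genes. On this scale Il2 was at 1.78, 1.88 and 1.53 in the control libraries and at 0.829, 0.561 and 0.568 in the DB2313 libraries. Lta was at 15.9, 16.9 and 16.7 against 8.82, 9.44 and 10.6. For both genes the groups lay well apart. Ifng was at 0.446, 0.313 and 0.436 against 0.255, 0.0801 and 0.161. In Ifng, Il2, Il4, Il13 and Lta no DB2313 library reached the lowest control library, and the exact permutation test gave p = 0.1 for each, the smallest it allows. Such a separation, with the DB2313 libraries lower, was found in 78.9% of all tested genes on this scale. With libraries scaled to the T cell genes, edgeR called 5 of the 6 tested members lower, beside 78.0% of all tested genes, and the median log2 fold change of all tested genes moved to -0.58. The log2 fold changes were -1.40 for Il2 (adjusted p = 4.51e-07), -0.78 for Lta (adjusted p = 1.19e-10), -1.25 for Ifng (adjusted p = 0.00606), -1.35 for Il13 (adjusted p = 0.00269) and -0.60 for Il4 (adjusted p = 0.0474). Il17a, at -0.52, did not pass (adjusted p = 0.317). Whether single members differed from the median of all genes was not tested. Whether the counts of the cytokine genes and of the 20 marker genes came from the same cells was not tested.

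**Figure D2:**
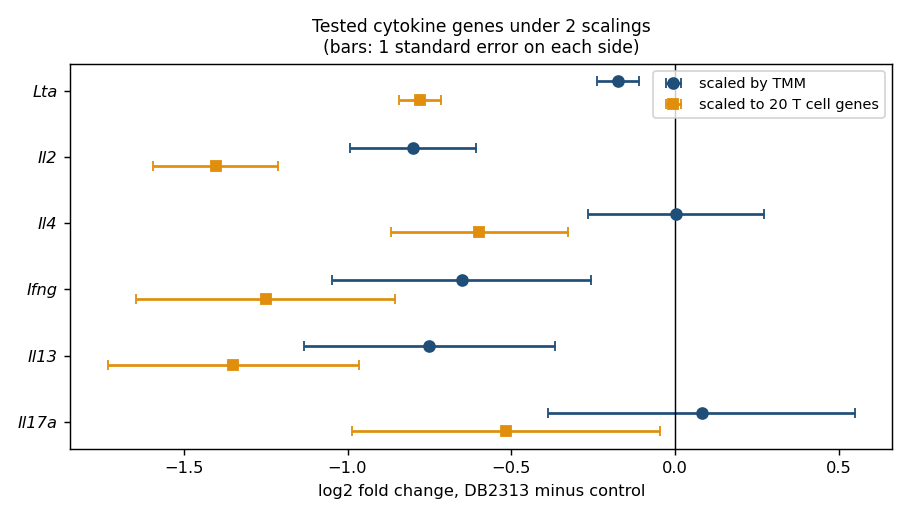
Log2 fold change of the 6 tested cytokine genes, DB2313 minus control, with libraries scaled by TMM (circles) and to the counts of 20 T cell genes (squares); bars extend 1 standard error to each side. Il2 is at -0.80 and -1.40 and Lta at -0.18 and -0.78, while Il4 and Il17a lie close to 0 under TMM and below 0 under the other scaling.

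Genes of other cells that can make these cytokines moved as well. The counts below stand beside 20.8% higher and 24.6% lower among all tested genes. Of 14 genes of mast cells and basophils, known sources of Il4 and Il13, 11 were tested, and 4 were higher and 5 lower (5 and 4 under library size or upper quartile scaling). Their summed level was 1305 to 1324 CPM in the control group and 1070 to 1094 CPM in the DB2313 group. The mast cell genes Cpa3, Cma1 and Tpsb2 fell, with log2 fold changes of -1.31, -1.59 and -5.40, whereas the basophil genes Mcpt8 and Prss34 rose by 0.52 and 0.39. Other genes of both cell types moved the opposite way, as Kit rose by 0.13 and Cd200r3 fell by 0.38 on the log2 scale. Under scaling to the T cell genes, the rises of Mcpt8 and Prss34 turned to -0.078 and -0.21, and 9 of the 11 genes were lower and 0 higher. On that scale 78.0% of all tested genes were lower and 1.05% higher. Of 7 genes of γδ T cells, a source of Il17a, 6 were higher and 1 lower, at a sum of 60.2 to 68.4 and 96.7 to 103.8 CPM. Of 9 genes of natural killer cells, a source of Ifng, 7 were tested, and 5 were higher and 1 lower, at 38.0 to 41.8 and 48.9 to 57.6 CPM. Of 9 genes of innate lymphoid cells, which make Il5, Il13 and Il22, 8 were tested, and 4 were higher and 2 lower, at 145.2 to 151.8 and 134.9 to 140.7 CPM. Most of this sum came from Kit, which rose from 74.8 to 81.9 CPM, and Il1rl1, which fell from 52.3 to 30.9 CPM. Kit was also counted among the mast cell and basophil genes, so the sum is not particular to innate lymphoid cells. Of 6 genes of CD4 and regulatory T cells, 3 were higher and 1 lower, at 619.0 to 639.8 and 721.8 to 729.5 CPM. Scaled to the T cell genes, the higher calls numbered 1 in γδ T cells and 0 in natural killer cells, innate lymphoid cells and CD4 and regulatory T cells. Of the tested markers of further cell types, 1 was higher and 3 lower of 8 for eosinophils, 1 and 8 of 10 for dendritic cells, 0 and 9 of 9 for neutrophils, and 6 and 1 of 9 for B cells. The part of these cells in the counts of the cytokine genes was not tested.

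Several members sit beside other cytokine genes. Lta lies 1.16 kb from Tnf and 6.84 kb from Ltb, which encodes lymphotoxin-β. Ltb was far more abundant in CPM and rose from 557.9 ± 22.3 to 820.6 ± 21.2 CPM (SD, n = 3 each), a log2 fold change of 0.56 that turned to -0.047 under scaling to the T cell genes. Tnf, which encodes the inflammatory cytokine TNF, fell from a mean of 38.3 to 29.6 CPM, a log2 fold change of -0.37 (standard error 0.068, adjusted p = 7.23e-05 by edgeR). Since ratios within a library do not depend on its scaling, the 3 genes were set against each other. Lta had 9.99, 10.1 and 9.71 counts per 100 counts of Ltb in the control libraries and 5.47, 5.75 and 6.71 in the DB2313 libraries, so that the groups lay far apart (exact permutation p = 0.1, the smallest possible). Per 100 counts of Tnf, Lta had 138.4, 148.6 and 146.0 against 146.4, 161.4 and 191.1, with overlapping groups (exact permutation p = 0.2). Per 100 counts of Ltb, Tnf had 7.22, 6.77 and 6.65 in the control group against 3.73, 3.56 and 3.51 in the DB2313 group. These values did not overlap between the groups (exact permutation p = 0.1). So the ratios of Lta and of Tnf to Ltb both separated the groups, and the ratio of Lta to Tnf did not. With 3 samples a group this test cannot go below 0.1, so it settles none of these comparisons.

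Il3 lies 15.6 kb from Csf2 on chromosome 11, which encodes the myeloid growth factor GM-CSF. Csf2 fell from 2.12 to 1.22 CPM, a log2 fold change of -0.80 (standard error 0.30, adjusted p = 0.0356 by edgeR). Il17a lies 42.6 kb from Il17f, which was at 0.428 and 0.486 CPM and did not pass the filter on low counts. Il2 lies 96.8 kb from Il21 and Ifng 231.0 kb from Il22, and in both pairs the latter gene did not pass the filter on low counts.

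Of 28 other cytokine genes, not all of them particular to T cells, 23 were tested. Of these, 6 were higher and 8 lower, and 9 did not pass, beside 20.8% higher and 24.6% lower among all tested genes. The median log2 fold change was -0.12, beside 0.019 over all tested genes. Besides Ltb, the most abundant were Ccl5, a chemokine of effector CD8T cells and macrophages, and Tgfb1, which encodes the inhibitory cytokine TGF-β1. Ccl5 fell from 757.6 ± 17.9 to 306.4 ± 14.3 CPM (SD, n = 3 each), a log2 fold change of -1.31, and was the only gene of the list past the threshold of fold change. Tgfb1 went from 330.1 to 270.8 CPM, a log2 fold change of -0.29. Several of the 28 genes, such as Ccl5, Il27 and Ebi3, are made by macrophages, whose genes were mostly lower in the DB2313 group. The part of macrophages in these values was not tested.

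Receptor chains of the 10 cytokines were followed as well. Of 22 chains, 18 were tested, and 4 were higher, 11 lower and 3 did not pass, with a median log2 fold change of -0.38. Over all tested genes, 20.8% were higher and 24.6% lower, with a median of 0.019. For interleukin-2, the α chain Il2ra, which forms the high-affinity receptor, fell from 467.0 to 421.7 CPM, while the signalling chain Il2rb rose from 394.1 to 555.5 CPM and the shared γ chain Il2rg by 0.14 on the log2 scale. For interferon-γ, the binding chain Ifngr1 rose by 0.47 and the signalling chain Ifngr2 fell by 0.34 on the log2 scale. For lymphotoxin-α, its receptors Tnfrsf1a and Tnfrsf1b fell, with log2 fold changes of -0.60 and -0.42, and so did Ltbr and Tnfrsf14, with -0.70 and -0.77. For interleukin-4 and interleukin-13, Il4ra fell from 417.6 to 292.0 CPM and Il13ra1 fell by 0.50 on the log2 scale. The largest changes were in the β chains of the interleukin-3 receptor, Csf2rb, which fell from 1162 to 475.4 CPM, and its close paralog Csf2rb2, which fell from 605.4 to 230.5 CPM. The division of reads between that pair is uncertain. Scaled to the T cell genes, 18 chains were lower and 0 higher, beside 78.0% lower and 1.05% higher among all tested genes. The rises of Il2rb, Il2rg, Ifngr1 and Il17ra turned to falls under this scaling (log2 fold change -0.11 for Il2rb). Many of these chains are also made by macrophages, whose genes were mostly lower in the DB2313 group, and their part in these values was not tested.

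Of 33 transcription factors that act on cytokine genes, all were tested, and 8 were higher, 15 lower and 10 did not pass (10 higher and 11 lower under library size scaling). The median log2 fold change was -0.082, beside 0.019 over all tested genes, of which 20.8% were higher and 24.6% lower. Irf4, which acts downstream of the T cell receptor and also in macrophages, fell from 116.8 to 52.1 CPM, a log2 fold change of -1.17, and was the only factor past the threshold of fold change. Stat3 and Ikzf1 were among the most abundant. Ikzf1, a repressor of Il2, rose by 0.27 on the log2 scale and turned negative under scaling to the T cell genes. Stat3 fell by 0.092 on the log2 scale and turned positive with library size scaling. Among factors of the NFAT, AP-1 and NF-κB families, Nfatc2, Rel and Fos fell, with log2 fold changes of -0.40, -0.46 and -0.59, as did Nfkb1 and Fosl2. Nfatc3 rose by 0.15 on the log2 scale, and Nfatc1, Jun, Junb, Batf and Rela did not pass. Among lineage factors, Eomes and Gata3 rose by 0.64 and 0.23 on the log2 scale, and Tbx21 had a log2 fold change of 0.16 that did not pass (adjusted p = 0.266 by edgeR), but under scaling to the T cell genes Gata3 and Tbx21 turned negative and Eomes was at 0.039. Bcl6, Maf, Prdm1 and Ahr, which act in helper and effector subsets, fell, with log2 fold changes of -0.39, -0.20, -0.48 and -0.30. Scaled to the T cell genes, 31 factors were lower and 0 higher, beside 78.0% lower and 1.05% higher among all tested genes.

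Genes that the cytokines are known to induce were counted as a further readout, although many have other inducers and IFN-γ had been given to the macrophages of both groups. Among all tested genes, 20.8% were higher and 24.6% lower (33.1% and 19.2% under library size scaling), with a median log2 fold change of 0.019. Of 20 interferon-γ targets, 4 were higher, 10 lower and 6 did not pass, with a median log2 fold change of -0.063 (8 higher and 9 lower under library size scaling). The GTPase gene Gbp2 fell by 0.24 on the log2 scale, Igtp, another GTPase gene, rose by 0.57, and the peptide transporter gene Tap1 had a change of 0.067 that did not pass. Both Igtp and Tap1 turned negative under scaling to the T cell genes. Nos2, Ciita and Irf8 fell, with log2 fold changes of -3.41, -2.45 and -1.08. These encode inducible nitric oxide synthase, the activator of MHC class II genes and a myeloid transcription factor. Of 15 interleukin-2 targets, 6 were higher, 7 lower and 2 did not pass (6 higher and 3 lower under library size scaling), at a median of -0.078 on the log2 scale and none past the threshold of fold change. Their most abundant members were Ccnd2, a cyclin gene, Il2ra and Pim1, a kinase gene, of which Ccnd2 and Il2ra fell, with log2 fold changes of -0.098 and -0.15, and Pim1, at -0.078, did not pass and turned positive with library size scaling.

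Of 14 targets of interleukin-4 and interleukin-13, 13 were tested, and 12 were lower and 1 higher, with a median log2 fold change of -0.84. Among all tested genes, 24.6% were lower and 20.8% higher, with a median of 0.019. Ccl22, a chemokine of dendritic cells and macrophages, fell from 2190 to 1188 CPM, and Chil3 fell by 0.27 on the log2 scale. Pdcd1lg2, Ccl24 and Arg1 fell as well, with log2 fold changes of -1.99, -3.20 and -1.12. Retnla had 28, 28 and 27 counts in the control libraries and 0 in each DB2313 library, at least 9.17-fold lower against 3 counts per library. Most of these genes are known from alternatively activated macrophages. Of the 20 macrophage genes, 17 were lower and 3 higher, with a median log2 fold change of -0.83. Il4 itself had a log2 fold change with a 95% interval from -0.55 to 0.56, and Il13 one with an interval from -1.54 to 0.044.

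**Figure D3:**
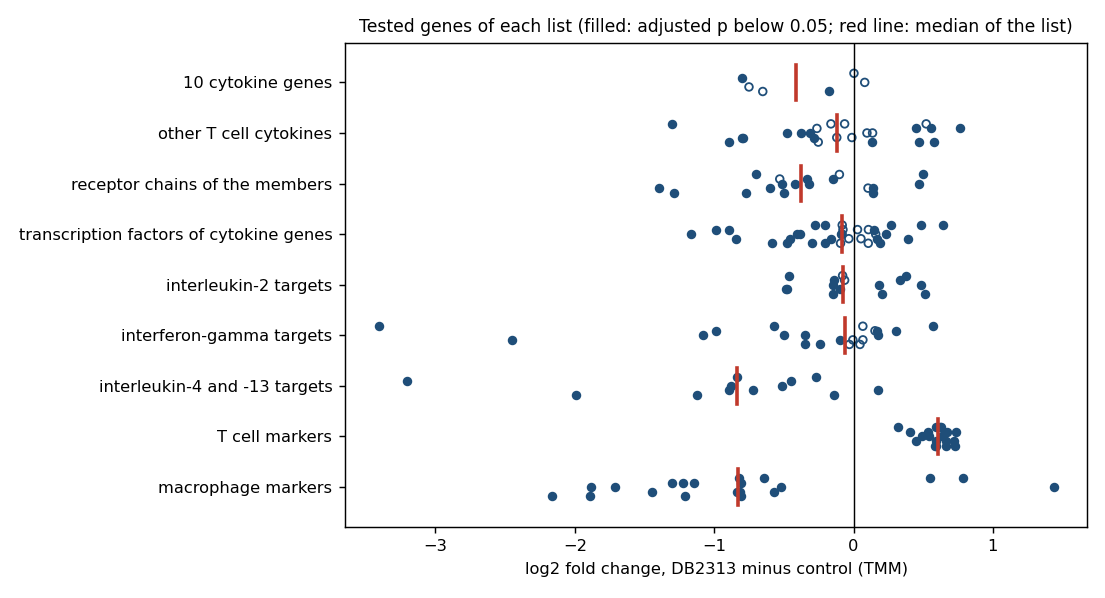
Log2 fold change, DB2313 minus control under TMM scaling, of the tested genes of 9 lists. Retnla, with 0 counts in each DB2313 library, is not drawn but enters the median of the interleukin-4 and interleukin-13 targets. Filled points passed an adjusted p of 0.05, open points did not, and red lines mark the median of each list. The 6 tested cytokine genes have a median of -0.41, the T cell genes lie wholly above 0, and the targets of interleukin-4 and interleukin-13 have a median of -0.84.

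The pattern of Lta over the 6 libraries was compared with that of 9333 protein-coding genes by the Euclidean distance between centred log2 CPM values. The closest were Eci2 (0.0676), a gene of fatty acid oxidation, Vps50 (0.0703), a gene of endosomal recycling, and Tsc2 (0.0846), an inhibitor of the mTOR pathway. Their log2 fold changes were -0.19, -0.16 and -0.23, of which Eci2 and Tsc2 passed the test (adjusted p = 0.0204 and 0.00284 by edgeR) and Vps50 did not (adjusted p = 0.116).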

How the data were processed

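RNA-seq of 6 samples was analysed, 3 in each group, with groups taken from GEO's labels. The authors deposited raw counts per gene with gene lengths and coordinates. The submitters' processing notes name CASAVA 1.8, HISAT2 2.0.5 and featureCounts 1.5.0-p3, whereas the paper's methods name LifeScope for alignment and counting. The genome build, the annotation, and whether strand was used are not given in the sources used here. All 10 cytokine genes, and 98.3% of 54409 genes shared with GENCODE mouse release M21, have the start and end given there for GRCm38.

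The deposited counts were filtered with filterByExpr, scaled by TMM and tested with glmQLFit and glmQLFTest of edgeR 4.0.16, which uses limma 3.58.1, under R 4.3.3. P-values were adjusted by Benjamini-Hochberg over all 14883 tested genes. Thresholds were an adjusted p of 0.05 and, where stated, an absolute log2 fold change of 1. The common biological coefficient of variation was 4.67%. CPM were scaled by TMM, and RPKM used the deposited gene lengths, which are in bases. Single values were compared by an exact two-sided permutation test (scipy 1.17.1), whose smallest p is 0.1 for 3 against 3. Ratios of totals carry exact intervals at 95%, and, as no molecular identifiers are described to tell copies of a molecule apart, these and the floor of 3 counts describe counting error alone. The scripts were tested on simulated counts.

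The members and the 6 lists of related genes and 11 lists of markers were chosen with earlier results of these data known, as was the scaling to the T cell genes. All 10 members were named. Of each list, the text drew on the 3 most abundant genes and up to 5 past both thresholds with the largest change, if their group means reached 1 CPM in either group. Some genes of these lists are not reported here. Cytokine genes within 500 kb of a member were named as neighbours. For likeness to Lta, those averaging 10 CPM or more were compared. Iltifb, Adad1, AC153498.1, Gm12214, Gm12534 and the further receptor chains, transcription factors, mast cell genes and CD8 genes named were chosen after their values were seen. The alternatives were scaling by library size, by upper quartile or to the T cell genes, DESeq2 1.42.0, no filter, a minimum mean of 1 CPM, a replicate block, and leaving out each of the 6 libraries.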

Additional observations from a re-analysis of the deposited data

How the results depend on the processing

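The lower call of Il2 and the absence of higher calls among the 10 cytokine genes were the same in all 13 alternatives. The number of lower members, 2 as reported, was 1 with DESeq2, library size scaling and upper quartile scaling, where Lta was lost, and 5 with scaling to the T cell genes. It ranged from 1 to 2 when single libraries were left out. With the threshold of fold change, 3 members were lower under scaling to the T cell genes, and 0 to 1 without single libraries, the 1 being Il2 without the DB2313 library 1. The small changes of Il4 and Il17a reversed to -0.60 and -0.52 under scaling to the T cell genes, and ranged from -0.096 to 0.075 and from -0.14 to 0.38 without single libraries.

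Scaling to the T cell genes left 0 higher genes in each of the 6 lists. It gave 16 lower genes among the other cytokines, 18 among the receptor chains, 31 among the transcription factors, 19 among the interferon-γ targets and 13 among the interleukin-2 targets. That scaling moved the median log2 fold change of all tested genes from 0.019 to -0.58, and library size scaling moved it to 0.11. Library size and upper quartile scaling called 8 and 7 interferon-γ targets higher, and 3 and 4 interleukin-2 targets lower. With library size scaling the medians of the transcription factors (0.013), the interferon-γ targets (0.032) and the interleukin-2 targets (0.016) turned positive, as did that of the interferon-γ targets with upper quartile scaling (0.0014). Each of these follows from the shift that a scaling adds to every gene.

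Same-numbered libraries did not deviate together (correlations of 0.014, -0.0039 and 0.019), and the labels do not say what a number marks. A fit with the replicate block gave log2 fold changes of -0.81 for Il2 (adjusted p = 0.00202, edgeR) and -0.18 for Lta (adjusted p = 0.0247, edgeR), and changed no call of a member. Ifng, Il13, Il17a and the genes below the filter had at most 27 counts in a library, which limits the precision of their values.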
